A study of Homo sapiens with 24 samples.

Results

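Long noncoding RNAs are transcripts that act without being translated into a known protein, and where such an RNA works in the cell bears on whether it meets ribosomes. The 8 described here were MALAT1, NEAT1, KCNQ1OT1, MIR17HG, TUG1, OIP5-AS1, NORAD and CYTOR, each taken as the gene row that maps to its symbol. Each symbol had 1 gene ID, so the set held 8 of 60666 genes. Their rows were matched by name, and the set itself was chosen with earlier results of these data known.

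RNA was sequenced from A549, a human lung adenocarcinoma line, and H460, a human large cell lung carcinoma line, both listed as wild type. Cells were transfected with a control siRNA (siNT) or with an siRNA against RICTOR (siRIC), the defining subunit of the kinase complex mTORC2. For each line and siRNA, the input (total RNA) and the polysomal fraction, RNA that sediments with several ribosomes, were sequenced. This gave 8 groups of 3 libraries, 24 in all, in which every group had been transfected. The sources used here do not give the siRNA sequence, its dose or the time after transfection, and each line is a single established line.

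The series is about mTORC2 and HIF-1β, the protein encoded by ARNT, in lung cancer. The design asks which RNAs differ between siRIC and siNT, in total and in polysomal RNA. Library totals ranged from 19087204 to 26550160 estimated counts. Within each line and fraction, all siRIC libraries had less RICTOR than all siNT libraries. In A549 it fell by 1.38 ± 0.23 (SE) on the log2 scale in total RNA and by 1.49 ± 0.23 in polysomal RNA, with edgeR adjusted p of 0.0159 and 0.007. In H460 the log2 differences were -1.52 ± 0.30 and -1.90 ± 0.31 and missed the threshold, with edgeR adjusted p of 1 and 0.62. The epithelial keratins KRT8 and KRT18 were high in both lines. KRT19 was at most 1.05 CPM in A549 and at 564 to 2454 CPM in H460. The epithelial cadherin CDH1 was at 37.2 to 195 CPM in A549 and at 0 in all H460 libraries. EPCAM, also on the epithelial list, was at 3.10 to 7.44 CPM in A549 and 0.393 to 1.10 CPM in H460. Of markers of other cell types, all 4 alveolar ones were at most 1.16 CPM, all 3 endothelial ones at most 0.154 CPM and the leukocyte markers PTPRC and CD3E at most 0.10 CPM. CD68, a lysosomal protein of macrophages also on the leukocyte list, was at 26.8 to 50.9 CPM in A549 and 37.6 to 120.1 CPM in H460. Of the 3 fibroblast markers, COL3A1 and DCN were at 6.34 to 29.5 and 3.59 to 17.6 CPM in H460, and COL1A1 at 4.01 to 11.2 CPM in A549. Their part in the differences between lines was not tested. In bulk libraries, fewer cells of a type and less RNA per cell cannot be told apart.

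MALAT1 and NEAT1 are neighbouring nuclear RNAs. MALAT1 gathers in nuclear speckles, which store splicing factors, and NEAT1 is the scaffold of paraspeckles. KCNQ1OT1 is an antisense transcript that silences neighbouring imprinted genes, among them the cell cycle inhibitor CDKN1C. MIR17HG is the primary transcript of a cluster of microRNAs, which nuclear processing cuts out of it. TUG1 and OIP5-AS1 occur in the nucleus and the cytoplasm, and OIP5-AS1 carries a site through which a microRNA is degraded. NORAD is a cytoplasmic RNA with a role in genome stability, and CYTOR is a mainly cytoplasmic RNA studied for its role in cell growth.

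In GRCh38, MALAT1 (ENSG00000251562) lies at chr11:65497738-65506516 and NEAT1 (ENSG00000245532) beside it at chr11:65422798-65445540. KCNQ1OT1 (ENSG00000269821) lies at chr11:2608328-2699994, inside KCNQ1 on the opposite strand. MIR17HG (ENSG00000215417) lies at chr13:91347687-91354577, TUG1 (ENSG00000253352) at chr22:30969265-30979395 and OIP5-AS1 (ENSG00000247556) at chr15:41282697-41313338. NORAD (ENSG00000260032) lies at chr20:36045618-36050960 and CYTOR (ENSG00000222041) at chr2:87455427-87521518. RefSeq lists 7 as long noncoding RNAs and TUG1 as protein coding.

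The MIR17HG span holds 6 microRNA hairpins with 12 mature microRNAs and 9 distinct seeds in RefSeq (GRCh38.p14). The 6 guide-side microRNAs are shown to give the content of the host transcript, with the seed, bases 2 to 8, in capitals. The libraries measure the host, not these products.
miR-17-5p: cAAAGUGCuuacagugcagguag
miR-20a-5p: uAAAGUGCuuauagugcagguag
miR-18a-5p: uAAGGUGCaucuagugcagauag
miR-19a-3p: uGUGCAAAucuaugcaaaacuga
miR-19b-3p: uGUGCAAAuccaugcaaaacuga
miR-92a-3p: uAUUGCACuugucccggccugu
The first pair shares 1 seed and the pair of miR-19 forms shares another.

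Promoter windows, 250 bases before to 50 bases after the annotated start, were found in RefSeq (GRCh38.p14) for 6 of the 8 genes, MALAT1 with 2 starts. They were searched on both strands for ACGTG and GCGTG, the core bound by dimers of HIF proteins with ARNT, and for CACGTG, which holds ACGTG on both strands and so overlaps it. CACGTG occurred once in each of the TUG1, OIP5-AS1 and NORAD windows and in none of the MALAT1, MIR17HG and CYTOR windows. ACGTG occurred in the same 3 windows only. GCGTG occurred in those 3 and in both MALAT1 windows, and the MIR17HG and CYTOR windows held neither. Of 35116 RefSeq promoter windows, 7.26% held CACGTG, 21.4% ACGTG and 36.5% GCGTG. The 3 windows with CACGTG are shown because the series is about the ARNT protein. They lie at chr22:30969015-30969314 (plus strand), chr15:41283740-41284039 (plus strand) and chr20:36050911-36051210 (minus strand), with each match to ACGTG or GCGTG on either strand in capitals.
TUG1: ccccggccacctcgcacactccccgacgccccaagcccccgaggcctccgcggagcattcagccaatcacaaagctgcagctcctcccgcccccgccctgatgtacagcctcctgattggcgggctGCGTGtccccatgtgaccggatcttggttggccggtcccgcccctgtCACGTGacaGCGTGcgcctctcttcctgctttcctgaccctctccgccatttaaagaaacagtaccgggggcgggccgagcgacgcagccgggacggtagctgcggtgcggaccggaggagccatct
OIP5-AS1: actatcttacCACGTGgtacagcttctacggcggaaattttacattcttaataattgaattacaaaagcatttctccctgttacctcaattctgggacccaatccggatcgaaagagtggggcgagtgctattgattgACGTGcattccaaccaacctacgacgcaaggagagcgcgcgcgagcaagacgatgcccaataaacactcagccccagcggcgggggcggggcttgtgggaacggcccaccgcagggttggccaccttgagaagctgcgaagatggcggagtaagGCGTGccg
NORAD: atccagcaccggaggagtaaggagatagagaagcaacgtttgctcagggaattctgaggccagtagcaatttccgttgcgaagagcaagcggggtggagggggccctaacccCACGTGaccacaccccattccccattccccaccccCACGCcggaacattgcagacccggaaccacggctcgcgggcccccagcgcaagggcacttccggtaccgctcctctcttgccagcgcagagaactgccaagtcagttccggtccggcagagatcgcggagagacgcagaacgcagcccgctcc
A match is a description of these letters and not a binding site.

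Levels are given as CPM, counts relative to library size, with library sizes scaled by TMM, a method that aligns libraries on the bulk of their genes. Over 24 libraries the mean CPM was 137 for NORAD, 135 for NEAT1, 74.3 for TUG1, 71.2 for OIP5-AS1, 35.2 for CYTOR and 24.3 for MALAT1. These lay at the 92.1, 92.0, 84.1, 83.4, 68.8 and 60.3 percentiles of the 16507 genes tested. KCNQ1OT1 and MIR17HG were not abundant, with mean CPM of 1.07 and 0.93, the 19.5 and 18.1 percentiles. Their counts ran from 3 to 64 and from 6 to 50 per library, so their values carry the most counting error of the 8. Per kilobase of gene span, a fair scale only for unspliced transcripts, the siNT total level in A549 was 48.5 ± 0.83 CPM per kb (SD, n = 3) for NORAD. On that scale NEAT1 was at 9.05 ± 1.22 and MALAT1 at 5.36 ± 0.27. RefSeq lists 2 transcripts for NEAT1 and 3 for MALAT1, and the whole span was used for each. These values would be too low if shorter transcripts prevail, so the order of the RNAs on this scale is uncertain.

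**Figure D1:**
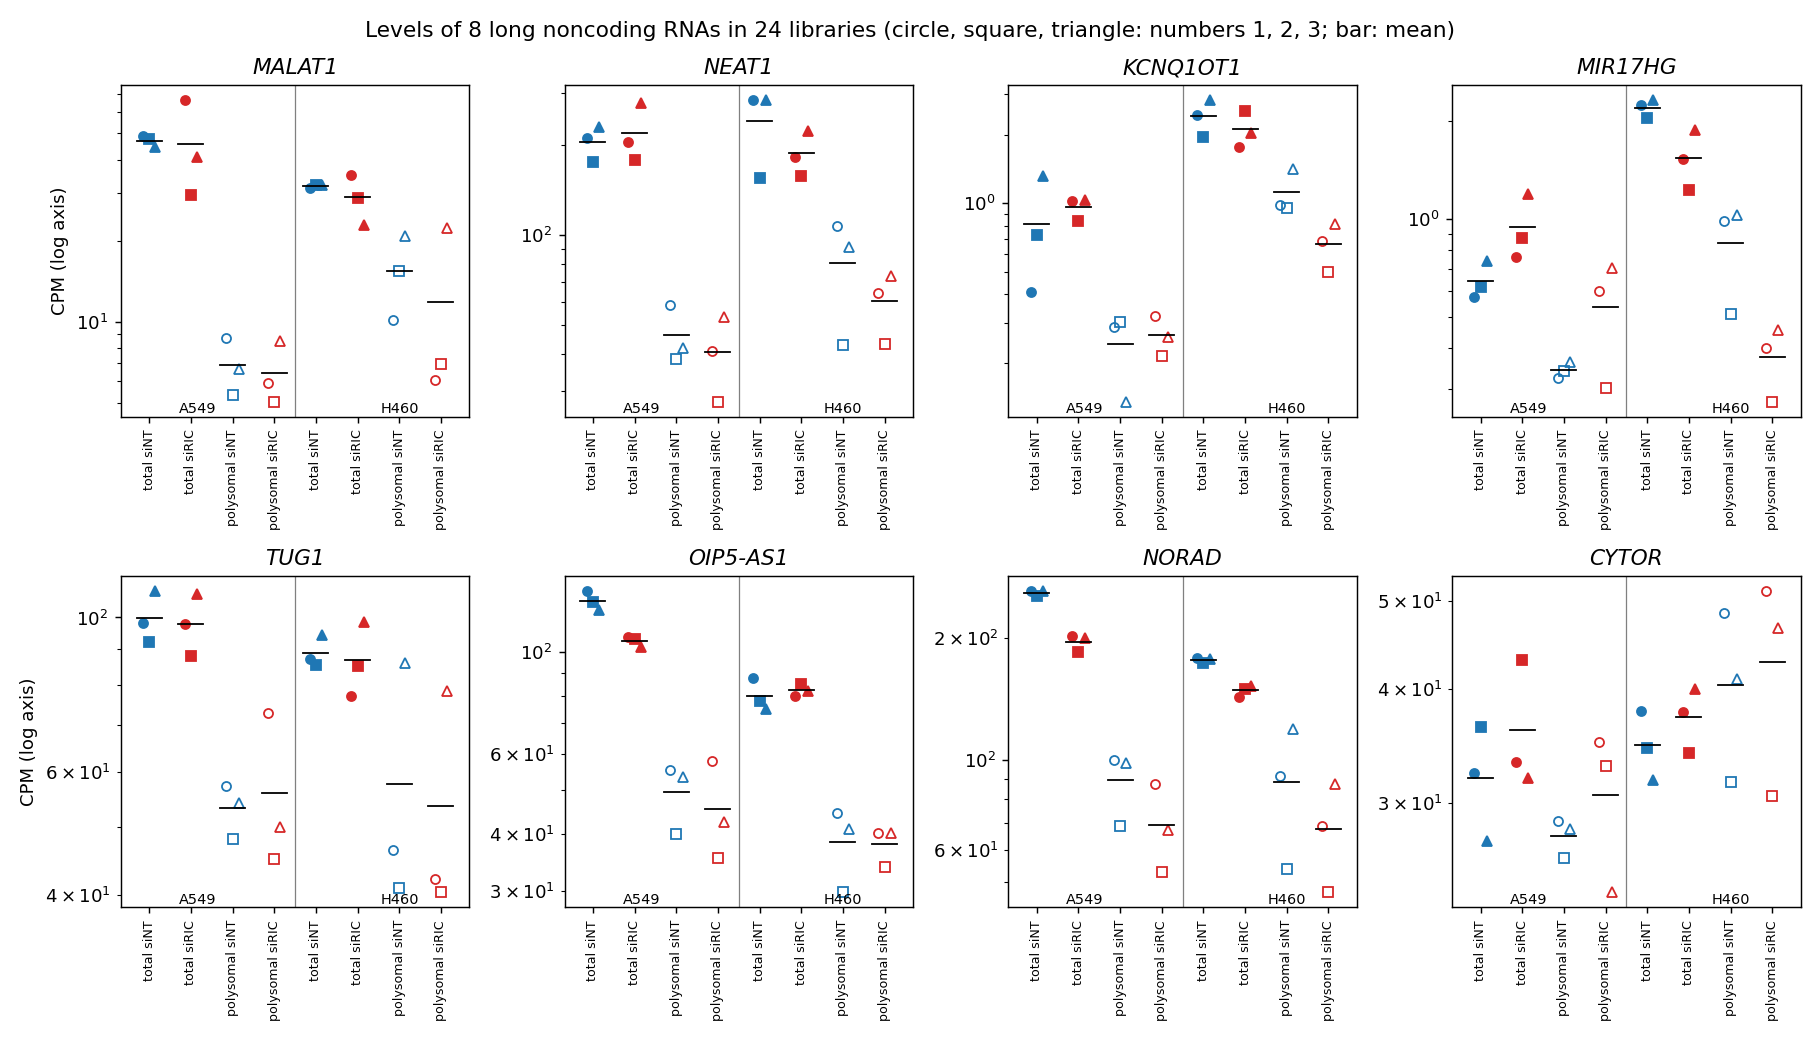
CPM of each RNA on a log axis in the 24 libraries, by line, fraction and siRNA, with a bar at the mean of 3 libraries. Filled total-RNA points lie above open polysomal points for most RNAs, while CYTOR points overlap.

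MALAT1 was at 49.0, 47.7 and 44.5 CPM in A549 siNT total RNA and at 8.70, 5.34 and 6.65 CPM in polysomal RNA. With siRIC it was at 66.6, 29.4 and 40.8 CPM in total and 5.89, 5.05 and 8.45 CPM in polysomal RNA. All A549 polysomal libraries lay below all A549 total libraries. With siNT, the mean log2 ratio of polysomal to total CPM within replicate numbers corresponded to 14.5%. Both levels are relative to library size, so this is not the share of MALAT1 RNA on polysomes. In H460, total libraries held 31.5, 32.1 and 32.1 CPM with siNT, and those with siRIC held 35.2, 28.7 and 22.9 CPM. The polysomal siNT libraries held 10.1, 15.4 and 20.8 CPM, and the polysomal siRIC libraries 6.06, 6.98 and 22.4 CPM. Both H460 polysomal libraries of number 3 were the highest of their group.

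NEAT1 was at 212, 176 and 230.1 CPM in A549 siNT total RNA and at 58.3, 38.5 and 42.0 CPM in polysomal RNA. In H460 siNT it was at 283, 155 and 284 CPM in total and 107, 43.0 and 91.2 CPM in polysomal RNA. The total and polysomal libraries did not overlap in either line, and library 2 was the lowest of each of these 4 groups. With siRIC, A549 total and polysomal ranges were 179 to 276 and 27.7 to 53.4 CPM, and H460 ranges were 158 to 223 and 43.4 to 73.3 CPM.

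KCNQ1OT1 was at 0.410, 0.724 and 1.31 CPM in A549 siNT total RNA and at 0.288, 0.303 and 0.136 CPM in polysomal RNA. In H460 siNT it was at 2.44, 1.94 and 2.83 CPM in total and at 0.986, 0.953 and 1.41 CPM in polysomal RNA. The fractions did not overlap in either line. MIR17HG was at 0.574, 0.616 and 0.744 CPM in A549 siNT total RNA and 0.324, 0.341 and 0.362 CPM in polysomal RNA. In H460 siNT it was at 2.24, 2.04 and 2.32 CPM in total and 0.986, 0.508 and 1.03 CPM in polysomal RNA. Every H460 siNT total library was above every A549 total library for both RNAs.

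TUG1 was at 98.1, 92.3 and 109 CPM in A549 siNT total RNA and 57.3, 48.2 and 54.2 CPM in polysomal RNA. In H460 siNT it was at 87.3, 85.5 and 94.4 CPM in total and 46.4, 41.0 and 85.9 CPM in polysomal RNA. The H460 polysomal library of number 3 lay within the total range, and with siRIC library 3 was again the highest, at 78.5 CPM beside 42.2 and 40.3 CPM.

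OIP5-AS1 was at 136, 128 and 123 CPM in A549 siNT total RNA and 55.3, 40.0 and 53.4 CPM in polysomal RNA. In H460 siNT it was at 87.8, 78.0 and 74.9 CPM in total and 44.5, 29.9 and 41.0 CPM in polysomal RNA. The fractions were apart in both lines. Its antisense partner OIP5, a protein-coding gene that overlaps it, had polysomal-to-total log2 differences with siNT of -0.01 ± 0.17 in A549 and 0.04 ± 0.17 in H460.

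NORAD had close total-RNA values, at 262, 254 and 262 CPM in A549 siNT and 179, 174 and 178 CPM in H460 siNT. Its polysomal values were 100.1, 68.5 and 98.5 CPM in A549 siNT and 91.5, 53.6 and 119 CPM in H460 siNT. The fractions did not overlap, and polysomal library 2 was the lowest in both lines.

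CYTOR was at 32.4, 36.4 and 27.2 CPM in A549 siNT total RNA and 28.7, 26.1 and 28.1 CPM in polysomal RNA. In H460 siNT it was at 37.8, 34.5 and 31.8 CPM in total and 48.5, 31.6 and 41.1 CPM in polysomal RNA. The fractions overlapped in both lines. CYTOR is nearly identical in sequence to part of MIR4435-2HG, and how estimated counts were divided between them was not given, so its level is uncertain.

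Polysomal RNA was compared with total RNA first within siNT. In A549, 6 of the 8 RNAs were lower in polysomes and 0 higher at an adjusted p under 0.05, beside 18.8% of all genes lower and 18.3% higher. The median log2 difference of the 8 was -1.44, against -0.04 over all genes tested. The nuclear RNAs MALAT1 and NEAT1 fell by 2.75 ± 0.26 and 2.13 ± 0.23 on the log2 scale, with edgeR adjusted p of 4.87e-06 and 9.68e-06. KCNQ1OT1 fell by 1.67 ± 0.47, with an edgeR adjusted p of 0.0107 that became 0.0517 without siNT polysomal library 3 and 0.0886 without siNT total library 3. NORAD fell by 1.52 ± 0.18, OIP5-AS1 by 1.37 ± 0.18 and TUG1 by 0.89 ± 0.17, with edgeR adjusted p of 2.24e-05, 4.04e-05 and 0.000802. MIR17HG, at -0.88 ± 0.41, and CYTOR, at -0.20 ± 0.18, did not pass, with adjusted p of 0.0961 and 0.395.

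With siRIC in A549, 6 of 8 were again lower and 0 higher, beside 21% of genes lower and 21.2% higher. The log2 differences were -2.79 ± 0.27 for MALAT1, -2.42 ± 0.23 for NEAT1 and -1.82 ± 0.47 for KCNQ1OT1. They were -1.48 ± 0.18 for NORAD, -1.20 ± 0.18 for OIP5-AS1 and -0.79 ± 0.17 for TUG1. MIR17HG, at -0.79 ± 0.37, and CYTOR, at -0.22 ± 0.18, missed the threshold. Counted together with MIR4435-2HG, CYTOR was at -0.43 with an edgeR adjusted p of 0.0472. MIR4435-2HG alone was lower in A549 polysomes, by 0.63 ± 0.16 with siNT and by 0.67 ± 0.16 with siRIC. Its edgeR adjusted p were 0.00593 and 0.00321. In H460 it was at -0.16 with siNT and -0.14 with siRIC and did not pass.

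In H460 with siNT, 5 of 8 were lower in polysomes and 0 higher, beside 10.5% of genes lower and 12.5% higher. NEAT1 fell by 1.60 ± 0.33, MIR17HG by 1.38 ± 0.32 and OIP5-AS1 by 1.08 ± 0.17, with edgeR adjusted p of 0.00454, 0.00953 and 0.00105. KCNQ1OT1 fell by 1.11 ± 0.30 and NORAD by 1.02 ± 0.27, with edgeR adjusted p of 0.02 and 0.0168. KCNQ1OT1 lost its call without siNT polysomal library 1 or 2 or siNT total library 1 or 3, at adjusted p of 0.0691, 0.0583, 0.0608 and 0.0847. It also lost it without a filter on low counts, at 0.0561, and with only the groups compared, at 0.0585. NORAD lost its call without siNT polysomal library 1 or siNT total library 1 or 3, at adjusted p of 0.051, 0.0518 and 0.0516. MALAT1 was at -1.04 ± 0.43, TUG1 at -0.63 ± 0.30 and CYTOR at 0.20 ± 0.20, with adjusted p of 0.0964, 0.158 and 0.513.

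In H460 polysomal RNA, library 3 was the highest of both siRNA groups for MALAT1, TUG1, NORAD, KCNQ1OT1 and MIR17HG. Without both of these libraries, MALAT1 was at -1.31 and TUG1 at -1.01, with edgeR adjusted p of 0.000462 and 8.86e-05, and 7 of 8 were lower, beside 22.7% of all genes. Leaving out the libraries with the highest polysomal values of these RNAs lowers their polysomal mean. That fit is therefore no independent test of a fall. With the replicate number as a block MALAT1 and TUG1 were at -1.11 and -0.71, with edgeR adjusted p of 0.0396 and 0.0157, and 7 of 8 were lower, beside 17.7% of all genes. MALAT1 also passed without a filter on low counts and with only the groups compared, at adjusted p of 0.0276 and 0.0322. Of 12 edgeR fits that left out 1 library, however, MALAT1 passed in 2 and TUG1 in 1, with adjusted p up to 0.275 and 0.385.

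With siRIC in H460, 6 of 8 were lower and 0 higher, beside 10.6% of genes lower and 13.1% higher. The log2 differences were -2.04 ± 0.35 for MIR17HG, -1.67 ± 0.31 for KCNQ1OT1, -1.66 ± 0.33 for NEAT1, -1.16 ± 0.27 for NORAD and -1.13 ± 0.17 for OIP5-AS1, all past the threshold. MALAT1 fell by 1.31 ± 0.43, with an edgeR adjusted p of 0.043. That call was lost in 8 of 12 fits that left out 1 library, all 3 siNT total, all 3 siRIC total and siRIC polysomal 1 and 2, at adjusted p from 0.0614 to 0.145, and with only the groups compared, at 0.0589. TUG1 was at -0.71 ± 0.30 with an edgeR adjusted p of 0.111, which became 0.0102 with the replicate block and 5.58e-05 without both polysomal libraries of number 3. The latter fit leaves out the highest polysomal TUG1 values and is likewise no independent test. Of 12 edgeR fits that left out 1 library, TUG1 passed in 2, with adjusted p up to 0.31. CYTOR was at 0.18 ± 0.20 and did not pass.

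By library ranges, 7 of 8 RNAs had all polysomal libraries below all total libraries in A549, beside 29.1% of genes with siNT and 25.3% with siRIC. In H460 it was 6 of 8, beside 18.8% with siNT and 20.5% with siRIC.

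The ratio, log2 polysomal minus log2 total CPM with a prior count of 2, was taken within each line, siRNA and replicate number. It was below 0 in all 12 library pairs for 7 RNAs and in 6 of 12 for CYTOR. The share of all genes below 0 in all 12 pairs was not computed. No source says that these pairs are separate cultures. The median over all genes lay between -0.04 and 0.00 in each pair. MALAT1 ran from -3.48 to -2.26 across A549 pairs, and its H460 pairs ran from -2.52 to -0.03. Its H460 ratios were -1.63, -1.05 and -0.62 with siNT and -2.52, -2.03 and -0.03 with siRIC, so library 3 was highest in both. NEAT1 ran from -2.69 to -1.86 across A549 pairs, and its H460 pairs from -1.86 to -1.40. Genes encoded by mitochondria, whose RNA is not on cytoplasmic polysomes, had median ratios from -3.31 to -2.04. They took 15.4% to 16.8% of counts in total groups and 3.02% to 3.28% in polysomal groups.

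**Figure D2:**
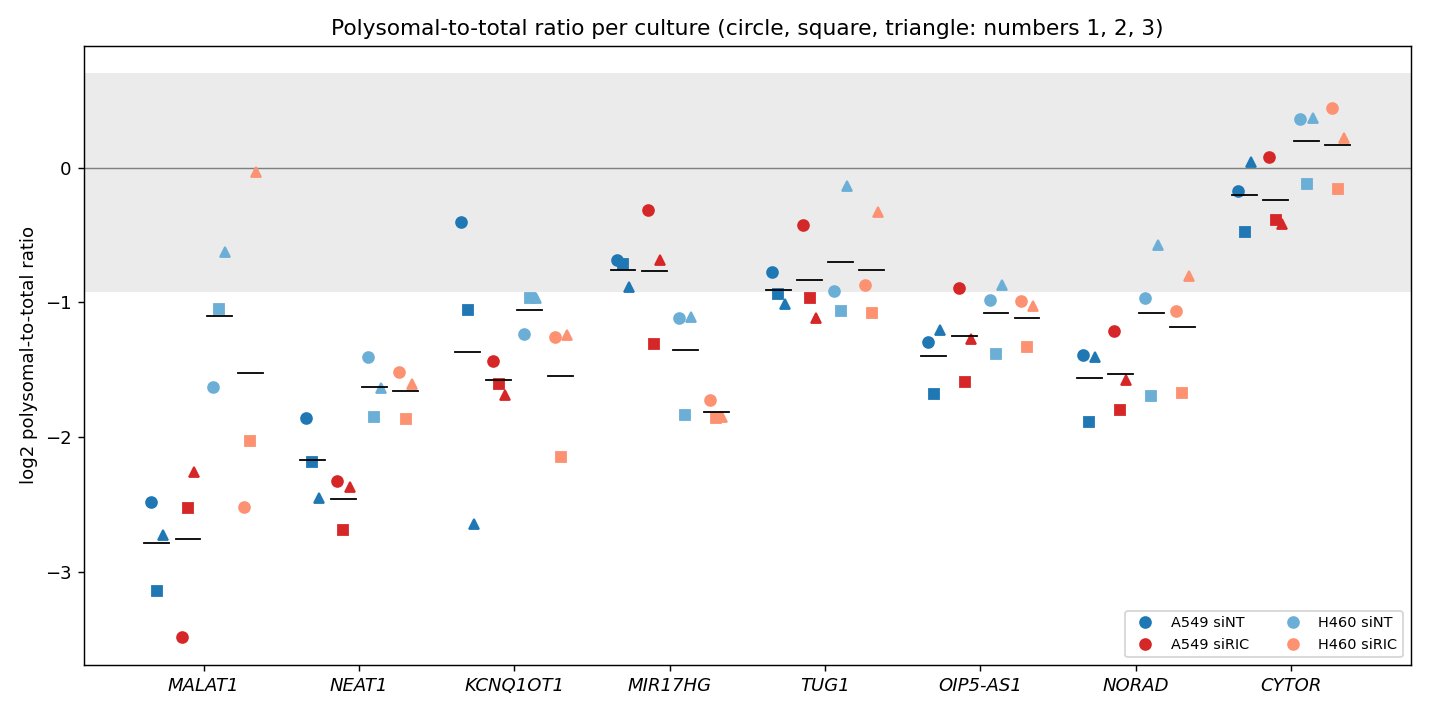
Log2 polysomal-to-total ratio of each RNA in 12 library pairs, with a bar at the group mean. The grey band, from -0.92 to 0.69, lies within the 10th to 90th percentile of all genes in every pair, and CYTOR is the RNA with all its points inside it.

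Other noncoding RNAs, in lists chosen with earlier results of these data known, were set beside the 8. With siNT, 8 of 13 tested nuclear noncoding RNAs were lower in A549 polysomes and 2 of 10 in H460, beside 18.8% and 10.5% of all genes, with 0 higher in either and medians of -1.02 and -0.73 against -0.04 and -0.02 over all genes. Among them JPX, an activator of X inactivation, fell by 1.24 in A549 and by 0.97 in H460. Of microRNA host transcripts, 6 of 11 were lower and 1 higher in A549, and 2 of 10 lower in H460, with medians of -0.72 and -0.53. The H460 counts of these lists rest on 2 genes each, too few to set apart from the share of all genes. MIR22HG fell by 1.19 ± 0.23 in H460. Of other long noncoding RNAs studied in cancer, 11 of 17 were lower in A549 and 5 of 15 in H460, with 0 higher and medians of -0.99 and -0.69. BCYRN1, an RNA that represses translation in neurons, fell by 3.18 ± 0.25 in A549 and by 2.64 ± 0.30 in H460.

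Messenger RNAs of proteins that bind the 8 RNAs were counted in the same way. With siNT, 6 of 20 were higher and 1 lower in A549 polysomes, beside 18.3% and 18.8% of all genes. In H460, 3 of 20 were higher and 0 lower, beside 12.5% and 10.5% of all genes, so the share that rose there was near that of all genes. The medians were 0.22 and 0.15. PSPC1, a paraspeckle protein that assembles on NEAT1, rose by 0.62 ± 0.16 in A549 and 0.71 ± 0.19 in H460.

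siRIC was then compared with siNT. No RNA of the 8 passed in total RNA, in polysomal RNA or in their ratio, in either line, by edgeR or by DESeq2. Beside this, 0.325% of all genes were called in A549 total RNA and 0.676% in A549 polysomal RNA, and 0% in the A549 ratio and in each H460 comparison. For those last, DESeq2 called 1 gene in the A549 ratio and 4, 1 and 1 genes in H460 total RNA, polysomal RNA and ratio. At an unadjusted p under 0.05, edgeR counted 1 of the 8 in A549 total RNA, beside 6.81% of genes, and 2 in H460 polysomal RNA, beside 1.73%. It counted 0 of the 8 in A549 polysomal RNA and ratio, beside 12.5% and 1.15% of genes, and 0 in H460 total RNA and ratio, beside 1.14% and 0.61%.

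NORAD was the 1 RNA counted in A549 total RNA. It was at 202, 185 and 199.9 CPM with siRIC against 262, 254 and 262 CPM with siNT, so the groups did not overlap. The log2 difference was -0.40 ± 0.18, with an edgeR adjusted p of 0.665. OIP5-AS1 was likewise lower in each A549 siRIC total library, at 108, 107 and 103 CPM, with a log2 difference of -0.28 ± 0.17. MIR17HG was higher in each, at 0.765, 0.876 and 1.19 CPM, with a log2 difference of 0.56 ± 0.37. Such separation was seen in 9.61% of genes on the lower side and 8.11% on the higher side. In H460 total RNA, NORAD was at 144, 150.2 and 152 CPM with siRIC, also below all siNT libraries, with a log2 difference of -0.24 ± 0.26. MIR17HG, at 1.52, 1.22 and 1.88 CPM, was the other RNA below all siNT libraries there, beside 6.31% of genes, with a log2 difference of -0.51 ± 0.30.

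MIR17HG and KCNQ1OT1 were the pair counted in H460 polysomal RNA. MIR17HG was at 0.400, 0.274 and 0.456 CPM with siRIC against 0.986, 0.508 and 1.03 CPM with siNT, with a log2 difference of -1.16 ± 0.37. KCNQ1OT1 was at 0.686, 0.502 and 0.811 CPM against 0.986, 0.953 and 1.41 CPM, with a log2 difference of -0.75 ± 0.33. Neither pair of groups overlapped, which was seen in 1.73% of genes on the lower side, and both edgeR adjusted p were 1. Counts behind the siRIC values were 6 to 16 per library.

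**Figure D3:**
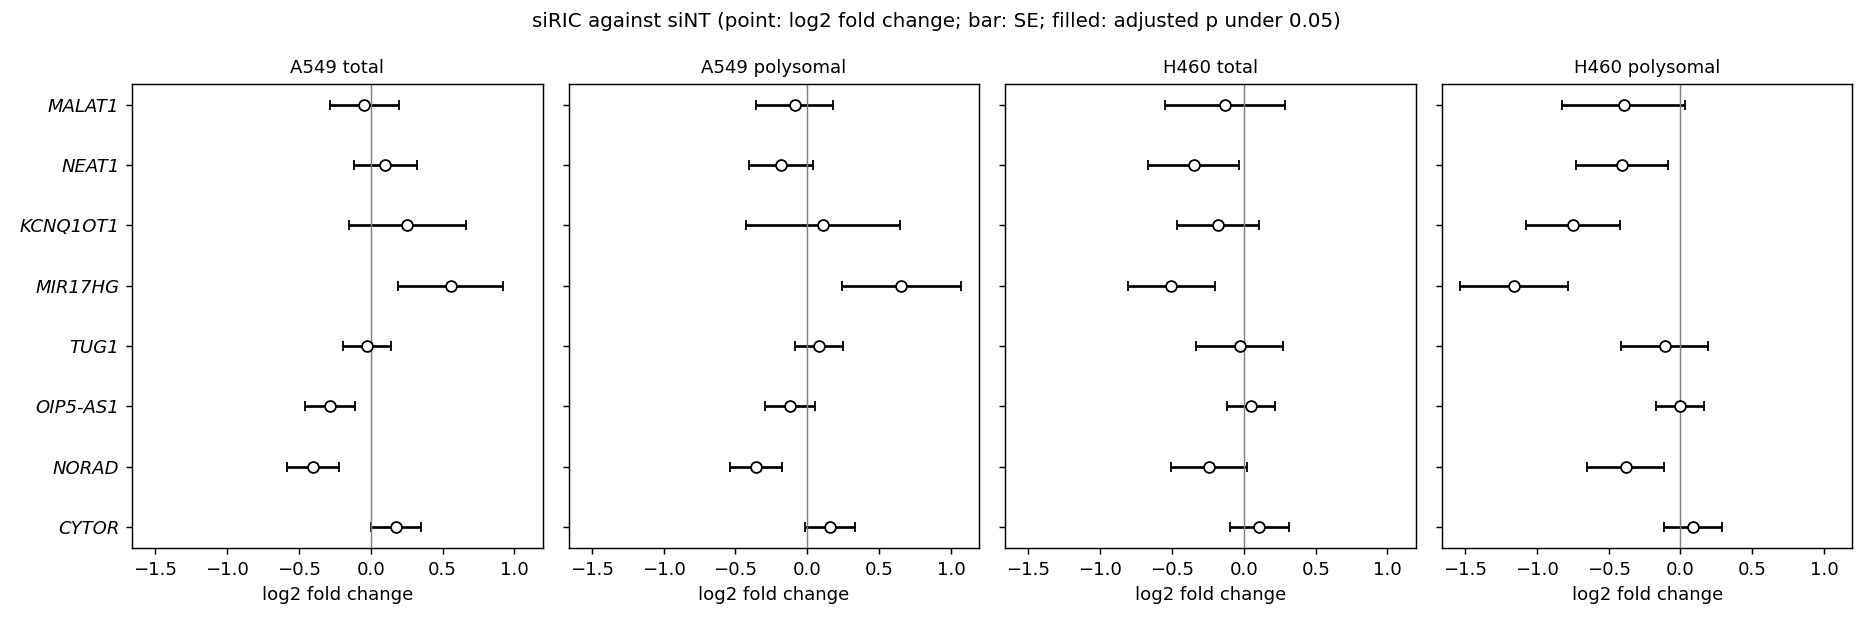
Log2 fold change of siRIC against siNT with its SE for each RNA, in total and polysomal RNA of each line. All points are open, since none had an adjusted p under 0.05.

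The siRIC response did not pass as different between H460 and A549 for any of the 8, in total or polysomal RNA. Beside this, 0% of all genes passed in total RNA and 0.00606% in polysomal RNA. For MIR17HG the H460 response minus the A549 response was -1.06 ± 0.45 in total and -1.82 ± 0.53 in polysomal RNA, with edgeR adjusted p of 1 and 0.822. By edgeR, 1 of the 8 had an unadjusted p under 0.05 in each fraction, MIR17HG, beside 2.31% and 3.5% of genes.

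Of 17 other cancer RNAs tested, 1 was called with siRIC in A549 total RNA and 1 in polysomal RNA, beside 0.325% and 0.676% of all genes. Of 10 genes tested beside or overlapping the 8 RNAs, 0 were called in total and 1 in polysomal RNA. In both comparisons, 0 of 13 nuclear noncoding RNAs, 0 of 11 microRNA host transcripts and 0 of 20 protein partner mRNAs were called. A count of 1 gene in a list is too few to set apart from the share of all genes. The cancer RNA was H19 in both, an imprinted RNA on the same chromosome arm as KCNQ1OT1. It was at 1.78, 2.13 and 2.19 CPM in siRIC total RNA against 6.85, 7.82 and 5.07 CPM with siNT. It fell by 1.69 ± 0.24 in total and by 1.53 ± 0.26 in polysomal RNA, with edgeR adjusted p of 0.00502 and 0.0114. Those became 0.0726 without siRIC total library 1 and 0.0762 without siNT polysomal library 1, and the polysomal one 0.0511 with only the groups compared. CDKN1C, a neighbour of KCNQ1OT1, was at 0.368, 0.302 and 0.633 CPM in siRIC polysomal RNA against 1.73, 1.14 and 1.31 CPM, and fell by 1.65 ± 0.36 with an edgeR adjusted p of 0.0431. That call held in 2 of 12 fits that left out 1 library, with adjusted p up to 0.242, and was lost with only the groups compared, at 0.137. KCNQ1OT1 was at 0.11 ± 0.54 in the same comparison.

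The lines were then compared with siNT, in total and in polysomal RNA. The number of RNAs called depended on the setting. With only the groups compared, total RNA gave 5 of the 8 and polysomal RNA 2, unlike the reported fits below. In total RNA, 2 of the 8 were higher in H460 and 1 lower, beside 26.2% and 28.9% of all genes. KCNQ1OT1 was higher by 1.56 ± 0.34 and MIR17HG by 1.77 ± 0.33 on the log2 scale, with edgeR adjusted p of 0.000527 and 7.76e-05. OIP5-AS1 fell by 0.69 ± 0.17, with an edgeR adjusted p of 0.00191. OIP5 also fell, by 0.70 ± 0.16. CYTOR was at 0.12 with an edgeR adjusted p of 0.637. Counted together with MIR4435-2HG it was at 0.54 with an edgeR adjusted p of 0.0145. NORAD was at -0.55 ± 0.23 and MALAT1 at -0.56 ± 0.36, with adjusted p of 0.0501 and 0.191. Both passed with only the groups compared, at adjusted p of 0.000173 and 0.000146, and without both H460 polysomal libraries of number 3, at 0.0138 and 0.0426. NORAD also passed with DESeq2, at 0.04, in 9 of 24 edgeR fits that left out 1 library, and with 1 replicate block shared by the lines, at -0.55 and an edgeR adjusted p of 0.0164. MALAT1 passed in 0 of those 24 fits. The library names number the replicates 3, 4 and 6 in A549 and 4, 6 and 7 in H460, so whether replicates of the same number share a batch across lines is uncertain.

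In polysomal RNA, 5 of the 8 were higher in H460 and 0 lower, beside 29.9% and 28.3% of all genes. KCNQ1OT1 was higher by 2.16 ± 0.41 and MIR17HG by 1.30 ± 0.37, with edgeR adjusted p of 1e-04 and 0.00457. MALAT1 was higher by 1.16 ± 0.38, NEAT1 by 0.80 ± 0.30 and CYTOR by 0.55 ± 0.20, with edgeR adjusted p of 0.0114, 0.028 and 0.0206. MALAT1 lost its call without H460 polysomal library 3, at an adjusted p of 0.086, and without A549 polysomal library 2, at 0.0553. NEAT1 lost its call without A549 polysomal library 2 or 3 or H460 polysomal library 1 or 3, at adjusted p of 0.105, 0.0855, 0.179 and 0.107, and with only the groups compared, at 0.0706, or without both H460 libraries of number 3, at 0.0648. CYTOR lost it without A549 polysomal library 2 or H460 polysomal library 1 or 3, at adjusted p of 0.0649, 0.136 and 0.0648, and with only the groups compared, at 0.104. OIP5-AS1 was at -0.37 ± 0.18 with an edgeR adjusted p of 0.0771, which was 0.0337 with the shared replicate block and 0.0466 with DESeq2.

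A direct test of the line difference in that ratio passed 0 of the 8 by edgeR, beside 0% of all genes. At an unadjusted p under 0.05, 1 of the 8 was counted, beside 4.99% of genes. It was MALAT1, at 1.73 ± 0.52 with an adjusted p of 0.972. Without a filter on low counts it was at 1.61 with an edgeR adjusted p of 0.000319. DESeq2 also gave 0 of 8.

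**Figure D4:**
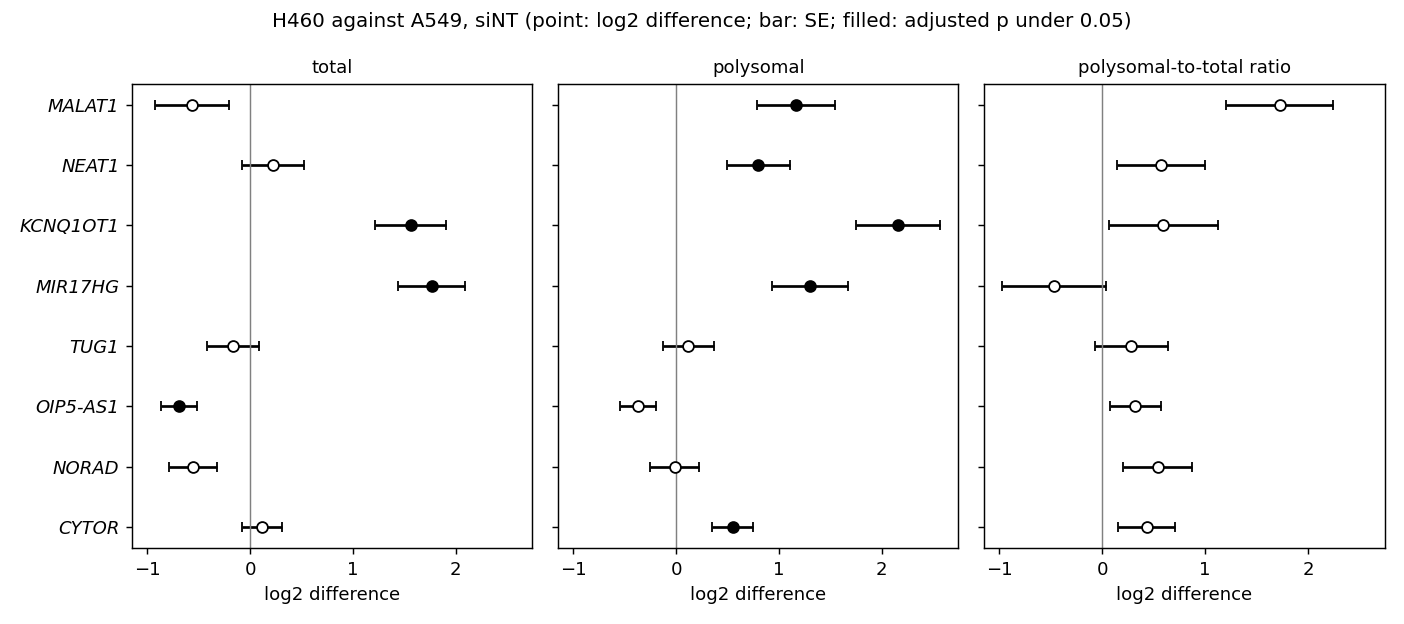
Log2 difference of H460 against A549 with its SE, siNT, in total RNA, polysomal RNA and their ratio. Filled points have an adjusted p under 0.05, 3 in total RNA, 5 in polysomal RNA and 0 in the ratio.

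Levels over the 24 libraries are given as Pearson's r on log2 CPM, as a description, since libraries share line, fraction and batch. OIP5-AS1 and NORAD had the highest r among the 8, at 0.957, with TUG1 and NORAD at 0.918 and TUG1 and OIP5-AS1 at 0.856. MALAT1 and NEAT1 had r of 0.878 and 0.899 with NORAD and 0.895 with each other. A link between these r and the promoter matches was not tested. CYTOR had r from -0.02 with OIP5-AS1 to 0.38 with KCNQ1OT1, with 0.08 for TUG1, 0.12 for MALAT1 and 0.21 for NEAT1. Of about 10703 candidate genes whose mean reached 5 CPM, NORAD was most like ZNF664 (r = 0.969), TUG1 most like CNEP1R1 (r = 0.968) and OIP5-AS1 most like RNF11 (r = 0.966). The top r was 0.958 for KCNQ1OT1 with AMMECR1L and 0.946 for NEAT1 with PPP1R12B. MALAT1 had r of 0.928 with MT-ND6, a gene encoded by mitochondria, and with EFCAB14, and CYTOR had its top r, 0.894, with SRRD.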

How the data were processed

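RNA-seq libraries of total and polysomal RNA from A549 and H460 were grouped by line, fraction and siRNA from the labels. The authors deposited 1 gene table of salmon estimated counts, merged over libraries and not normalized. The submitters' processing notes name bcl2fastq 2.20 and GRCh38. The sources used here do not give the salmon version, annotation or strand setting, so reads of antisense pairs may not be told apart. The labels list polyA RNA, but a stranded kit for total RNA with ribosomal depletion is named in their protocol.

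Estimated counts were rounded (9.40% were not whole). Genes were filtered by filterByExpr, scaled by TMM and tested with edgeR 4.0.16 in R 4.3.3, with 12 libraries per line and all 24 for differences between lines, in 15 comparisons. SE is the absolute log2 change over the root of its F statistic. The p-values were adjusted by Benjamini-Hochberg over the genes tested, at a threshold of 0.05. No source says that replicates are separate cultures, and p-values then cover only the spread seen between the samples, which may be technical. DESeq2 1.42.0 and other settings were alternatives. The edgeR step was tested on simulated data. Levels are CPM, and intervals of counting error were not computed.

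The labels give the replicate number as a batch, so the numbers pair the samples within a line. The reported fits used group means without this block and so did not use the pairing. The block was run as an alternative. Correlations of deviations from group means were 0.0207 to 0.259 for A549 and 0.0464 to 0.67 for H460 pairs of the same number, and at most 0.0225 and 0.126 for different numbers.

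The 8 RNAs, the 5 gene lists and the tests were chosen with earlier results of these data known. Named genes were all 8, the 3 list members with the smallest p in a comparison, of which some are printed, and list members called with siRIC. OIP5, which overlaps OIP5-AS1, and MIR4435-2HG, nearly identical in sequence to CYTOR, were added. The values of 1 list member are not reported here.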

Additional observations from a re-analysis of the deposited data

How the results depend on the processing

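Of 120 results, 8 RNAs in 15 comparisons, 31 passed the threshold, and none of those changed direction under an alternative. Of 2713 values under alternatives, 33 lost a call and 37 gained one, and 104 uncalled values changed sign. The siRIC counts stayed at 0 of 8 under every alternative run. For H460 against A549, total RNA gave 5 of 8 with only the groups compared and 5 without both H460 polysomal libraries of number 3, against 3. Polysomal RNA gave 2 with only the groups compared, against 5, and 3 to 6 when 1 library was left out. With 1 replicate block shared by the lines, chosen after seeing the data, total RNA gave 4 and polysomal RNA 6. The replicate block within each line cannot be told apart from the line in these 2 comparisons and was not run for them. The ratio gave 1 without a filter, against 0. H460 siNT polysomal against total gave 3 to 7 when 1 library was left out, against 5. CYTOR in polysomal RNA lost its line difference without a filter (adjusted p = 0.0567). The cause of these changes was not tested. For the 8 RNAs the block changed no call other than those given beside the results. Over all genes, A549 siRIC calls in total RNA were 50 and became 258 with the block, 166 with DESeq2, 257 without a filter and 152 with only the groups compared. In A549 polysomal RNA they were 104 and became 540, 346, 413 and 35. H460 calls of polysomal against total RNA with siNT were 3348 and became 5187 with the block, 2146 with only the groups compared and 7031 without both number 3 libraries. With siRIC they were 3458 and became 5349 with the block and 7510 without those libraries. Without a filter, the A549 ratio with siRIC, the line difference in the ratio and the response differences in total and polysomal RNA had 59, 63, 52 and 47 genes called, against 0, 0, 0 and 1, and DESeq2 called 1, 9, 7 and 9. In the H460 siRIC comparisons no setting called over 7 genes. Leaving out 1 library gave 7 to 172 A549 siRIC calls in total RNA and 19 to 456 in polysomal RNA. Ratios of KCNQ1OT1 and MIR17HG depended most on the prior count, since their counts were lowest.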
